A study of Mus musculus with 6 samples.

Results

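Histone lysine methylases write, and demethylases erase, methyl groups on lysines of the histone tails. They were followed here as 43 listed genes, grouped by the residue they act on, of which 41 were measured among 19938 genes with a probe set of their own. Each gene was read from the probe set that maps to it alone and, where a gene had several, from the one with the highest mean signal. Suv39h1 and Ash1l were not analysed here, and Setd8, Suv420h1 and Suv420h2 were measured under their current symbols Kmt5a, Kmt5b and Kmt5c. The list was drawn up by function and not by signal, although it was chosen with earlier results of these arrays known.

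Mouse cells of 3 populations, from progenitors of the blood to thymocytes, were each measured on 2 arrays. The HSC arrays held bone marrow cells transduced with NUP98-HOXB4, a fusion protein that lets progenitors multiply in culture, and grown with IL6 and SCF. The ProT arrays held cells carrying the same fusion, grown with IL7 and the Notch ligand DLL4. For the DP arrays, ProT cells were transferred into a Rag2-/- mouse, a host that makes no T or B cells of its own, and double positive thymocytes were profiled. All 3 populations therefore carried NUP98-HOXB4, and no array held cells without it. The labels used here give no strain or age, nor how DP cells were separated from the host thymus. They also do not say whether the 2 arrays of a population came from separate cultures or animals, so p-values measure only the spread between arrays, which may be technical.

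Methylation of H3K4 marks promoters and enhancers of active genes, H3K36 methylation covers transcribed gene bodies, and H3K79 methylation accompanies transcription. H3K9, H3K27 and H4K20 methylation are best known for silent or compacted chromatin. Most writers of the KMT2 and SET1 family work together with a shared core of WDR5, RBBP5, ASH2L and DPY30, and several of the enzymes described here are needed for blood progenitors or for thymocytes to develop.

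The labelled cell types were first set against their defining markers. Values are log2 signals made with RMA, so a difference of 1 is 2-fold, and 7.17 was the median of all gene values. The mean of 10 thymocyte markers was 6.05 to 6.12 in HSC, 7.51 to 7.64 in ProT and 12.06 to 12.09 in DP, with all 10 higher in DP than in ProT, and Cd4 and Cd8a in ProT were below the median of all genes. The mean of 8 progenitor markers was 10.93 to 11.32 in HSC, 10.39 to 10.45 in ProT and 8.39 to 8.41 in DP. Markers of other cells moved as well. Neutrophil and monocyte markers averaged 11.93 to 12.16 in HSC against 7.71 to 8.61 in ProT, and 4 of the 10 lay below the median of all genes in DP. NK and mast cell markers averaged 6.23 to 6.36 in HSC, 9.33 to 9.38 in ProT and 5.96 to 6.14 in DP, with 6 of 8 higher in ProT than in HSC and 7 of 8 lower in DP than in ProT. Of 8 thymic epithelium markers, 6 were higher in DP than in ProT and 1, Epcam, was lower (-2.60). The mean of the 8 was 7.89 to 7.90 in DP against 6.84 to 6.86 in ProT, with Ccl25 at 10.88 and 10.80 and Foxn1, at 6.38 and 6.36, below the median. The macrophage mean was 7.23 to 7.43 in ProT and 7.58 to 7.66 in DP. Of its 8 genes 4 rose, among them C1qb to 9.56 and 9.37, and 2 fell, Adgre1 (-3.98) and Cd68 (-1.46). B cell markers averaged 6.29 to 6.30 in ProT and 7.0 to 7.04 in DP, with 5 of 7 higher. Of 4 erythroid markers, with means of 6.37 to 6.40 and 7.04 to 7.12, 1 rose, Alas2 (2.69), and the other 3 were not called. The mean of 19 proliferation genes was 11.62 to 11.64 in HSC, 11.13 to 11.46 in ProT and 10.90 to 10.96 in DP, with 9 of them lower in DP than in ProT. What part any of these cells, or the cell cycle, had in the values of the histone enzymes was not tested, and in such bulk samples fewer cells of a type and less RNA per cell cannot be told apart.

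Most of the 41 enzymes and subunits changed at the step from ProT to DP and few at the step from HSC to ProT. Each step also changed the surroundings of the cells, from IL6 and SCF to IL7 and DLL4 in culture and then to a host mouse. Cell stage and surroundings therefore cannot be told apart at either step. In DP, 21 members were higher than in ProT and 5 were lower, and 12 of the 21 and 3 of the 5 were also called at an adjusted p below 0.01. In ProT, 2 members were higher than in HSC (Kdm1b and Kdm4b) and 1 was lower (Suv39h2). Here and below a gene is called, and said to have risen or fallen, at a Benjamini-Hochberg adjusted p below 0.05 in limma, with the adjustment over all 19938 genes. The 2 steps share the ProT arrays, and the values of the steps are therefore given side by side and not related to each other.

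These counts are read against all genes on the arrays. At the step from ProT to DP, 32.6% of all genes were called, 14.5% higher and 18.1% lower, whereas 51.2% of the members were higher and 12.2% lower. At the step from HSC to ProT, 14.7% of all genes were called, 7.85% higher and 6.9% lower, against 4.88% and 2.44% of the members. Between HSC and DP, 34.9% of all genes were called, 16.0% higher and 18.8% lower, against 46.3% (19) and 14.6% (6) of the members. The median log2 change of the members was 0.014, 0.373 and 0.423 for ProT against HSC, DP against ProT and DP against HSC, where that of all genes was -0.008, 0.018 and 0.019.

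**Figure D1:**
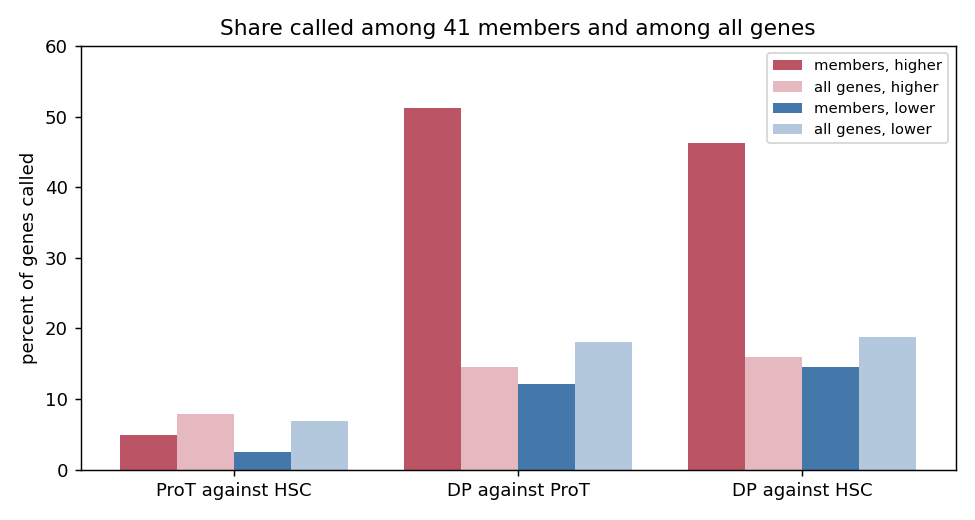
Percent of genes called in limma in each comparison, higher in red and lower in blue, for the 41 members (dark bars) and for all 19938 genes (pale bars). In DP against ProT the bar of members called higher stands at 51.2% beside 14.5% for all genes, while for ProT against HSC both member bars lie below those of all genes.

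The members lay high on the arrays, with 39 of 41 at or above the median of all gene values in every population. When genes reaching the median of all values on fewer than 2 arrays were left out, 10774 genes remained, with 40 of the members. Among those, 21.6% of genes and 20 members were higher in DP than in ProT, and 31.7% and 5 members were lower. For ProT against HSC the shares of all genes were 12.9% higher and 12.0% lower, with 3 members higher and 1 lower. For DP against HSC they were 24.1% and 33.2%, with 20 members higher and 6 lower. Suv39h2, counted as lower in both, passed this filter only through its 2 HSC arrays. Changes of at least 2-fold were called for 6.17% of all genes from HSC to ProT, 11.5% from ProT to DP and 13.8% from HSC to DP. The members with such changes numbered 1, 6 and 9.

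How far apart the arrays of a population lay differed between populations. The 2 DP arrays differed by at most 0.19 on the log2 scale over the members, with a median of 0.06, while the largest difference was 0.74 in ProT and 0.60 in HSC. Without DP replicate 1, 8 members were called higher in DP than in ProT (19.5%, against 7.36% of all genes) and 3 lower. Without DP replicate 2 these counts were 9 (22.0%, against 7.44%) and 2, and in both cases the lone DP array is assumed to vary like the other populations. Members called lower in DP than in ProT were fewer without either ProT array and more without either HSC array, and so were all genes called lower. Without either DP array fewer members were called higher in DP than in HSC, and so were fewer of all genes. Under any 1 left-out array, 10 of the 26 calls between ProT and DP were made each time, those of Kmt2a, Kmt2c, Kdm1b, Kdm5a, Kdm4c, Kdm6b, Prdm2, Suv420h1, Dpy30 and Smyd2.

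The share of higher among all calls also moved with the scaling of the arrays. From ProT to DP it was 44.6% as deposited, 54.4% after quantile normalization and 60.2% after each array was centred on its median, which moved the median change of all genes from 0.018 to 0.134. From HSC to ProT it was 53.2% as deposited and 42.0% after centring. Members called between ProT and DP then numbered 23 higher and 3 lower after quantile normalization, and 23 higher and 4 lower after centring. The 23 are 56.1% of the members, against 18.2% of all genes called higher after quantile normalization and 22.7% after centring. As deposited these shares were 51.2% and 14.5%, so the share of all genes called higher rose as well. All genes called lower numbered 3044 after quantile normalization and 2987 after centring, against 3607 as deposited.

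**Figure D2:**
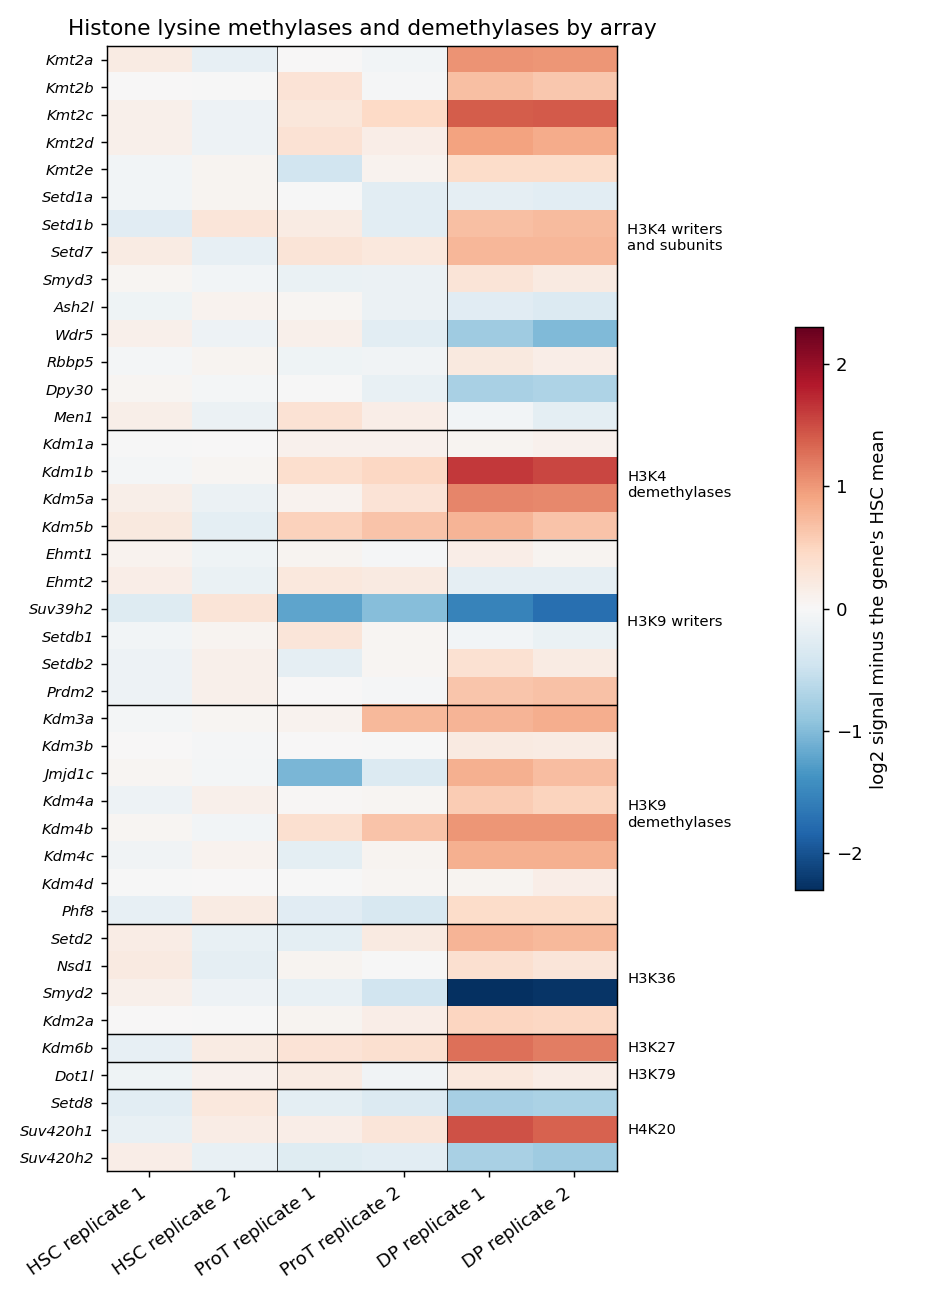
Log2 signal of each member on each of the 6 arrays minus that member's HSC mean, in red where higher and blue where lower, with members in rows grouped by the residue they act on. The 2 DP columns hold most of the strong colours in both directions, with the lowest value at Smyd2, and the ProT columns are pale apart from a few rows such as Suv39h2 and Jmjd1c.

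By pattern over both steps, 19 members were not called to ProT and then rose to DP, 5 were not called and then fell, 2 rose at both steps, 1 fell to ProT with no call afterwards, and 14 were called at neither step. Shares of all genes are not given for these patterns, and their counts stand as a description. No member was called both higher in ProT than in HSC and lower in DP, a pattern held by 4.17% of all genes. The opposite pattern, lowest in ProT, was called for 0 members and for 1.35% of all genes, and at an unadjusted p below 0.05 in limma it was met by 1 member, Jmjd1c, and the first pattern by 0. Without HSC replicate 1, 1 member met each pattern, and without ProT replicate 2, 1 member was lowest in ProT. By mean signal, 29 members were highest in DP, 8 in HSC and 4 in ProT. How all genes divide by mean signal is not given here, so these counts too are a description.

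Among the H3K4 writers and their core subunits, 9 of 14 rose from ProT to DP (64.3%, against 14.5% of all genes) and 2 fell (14.3%, against 18.1%). All of the risers but Rbbp5 were catalytic or family members, and both that fell, Wdr5 and Dpy30, belong to the shared core. Of the 7 KMT2 and SET1 family genes, 6 rose from ProT to DP and 0 fell, also at an unadjusted p below 0.05 in limma. This split into enzymes and core was chosen after the values were seen and is given as a description.

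Kmt2a, which keeps homeobox genes active in blood progenitors, measured 10.64 and 10.25 in HSC, 10.46 and 10.39 in ProT and 11.48 and 11.47 in DP. HSC and ProT overlapped and both DP arrays were higher, by 1.05 ± 0.13 (SE) over ProT, or 2.07-fold (limma adjusted p = 0.00218). Kmt2c, a writer of enhancer H3K4 monomethylation, measured 9.78 and 9.56 in HSC, 9.93 and 10.12 in ProT and 11.06 and 11.08 in DP. None of its groups overlapped, and it rose by 1.05 ± 0.11 from ProT to DP (limma adjusted p = 0.00109) and by 1.40 ± 0.11 from HSC to DP, while the difference of 0.35 from HSC to ProT was not called (adjusted p = 0.0972). The values of Kmt2d, its close relative, were 10.34 and 10.10 in HSC, 10.56 and 10.37 in ProT and 11.14 and 11.08 in DP, a rise from ProT of 0.65 ± 0.11 (limma adjusted p = 0.00729).

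Kmt2c is shown with the 250 bases before its RefSeq start, since it had the largest HSC to DP rise of the family. The capitals mark the GC box bound by SP and KLF factors, searched as GGGCGG on both strands. The sequence lies at chr5:25498784-25499033 of GRCm38.p6 on the minus strand and is written 5′ to 3′ on the strand of the gene. It partly overlaps the listed span of the gene itself.
Kmt2c: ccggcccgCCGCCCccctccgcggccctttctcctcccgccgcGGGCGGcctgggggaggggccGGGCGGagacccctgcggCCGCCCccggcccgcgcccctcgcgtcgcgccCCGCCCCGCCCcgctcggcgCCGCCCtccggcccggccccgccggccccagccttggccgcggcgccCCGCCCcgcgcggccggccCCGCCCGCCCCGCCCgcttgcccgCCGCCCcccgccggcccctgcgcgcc
It was 91.6% G and C, held 48 CpG pairs and 12 GC boxes, some of which share a base. A GC box was found in 32.7% of 32851 such windows in the RefSeq table and in 26 of the 42 windows of the 29 members listed there, and the median window held 6 CpG pairs over all genes and 19.5 over the members. The other motifs searched on both strands were the ETS core CCGGAAG in 4 member windows (6.91% of all windows), the RUNX core TGTGGT in 1 (14.0%), the E-protein E-box CAGGTG in 9 (17.2%) and the MYC E-box CACGTG in 3 (6.02%). The remaining 12 members had no window in the table.

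The remaining family members rose less than Kmt2a and Kmt2c, or were not called. Kmt2b, the paralogue of Kmt2a, measured 9.53 and 9.52 in HSC and rose from 9.83 and 9.49 in ProT to 10.21 and 10.14 in DP, by 0.52 ± 0.12 (limma adjusted p = 0.0212). Kmt2e, a family member with no shown activity on histones, measured 10.53 and 11.05 in ProT and 11.39 and 11.38 in DP, a rise of 0.60 ± 0.17 (limma adjusted p = 0.0432), and its HSC arrays, at 10.90 and 11.03, lay within the ProT range. Without ProT replicate 1 the difference for Kmt2e was 0.34 and not called (limma adjusted p = 0.078), and the call was also lost without DP replicate 1 (0.178) or DP replicate 2 (0.189). Setd1b, at 10.24 and 10.78 in HSC, rose from 10.69 and 10.27 in ProT to 11.20 and 11.24 in DP, by 0.75 ± 0.21 (limma adjusted p = 0.0426). Setd1a, its paralogue and likewise a main writer of promoter H3K4 trimethylation, measured 10.16 and 10.28 in HSC, 10.21 and 9.98 in ProT and 10.01 and 9.97 in DP, with no call in any comparison and a DP to ProT difference of -0.10 ± 0.10 whose sign turned after median centring (0.015).

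Setd7 and Smyd3, SET-domain methylases outside that family that also act on other proteins, both rose. Setd7 measured 10.73 and 10.69 in ProT and 11.20 and 11.21 in DP (0.50 ± 0.13, limma adjusted p = 0.0336), and Smyd3 9.19 and 9.21 in ProT and 9.64 and 9.56 in DP (0.40 ± 0.08, limma adjusted p = 0.0119). Against HSC, Setd7 was higher in DP by 0.77 and Smyd3 by 0.25, which was not called (adjusted p = 0.0557) as deposited and was called after quantile normalization (0.00911) and median centring (0.0348).

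Of the 5 subunits listed, 1 rose from ProT to DP and 2 fell. Wdr5, the core scaffold, measured 10.12 and 9.90 in HSC, 10.12 and 9.76 in ProT and 9.19 and 9.0 in DP. Both DP arrays lay below all others, and the log2 change from ProT was -0.84 ± 0.15 (limma adjusted p = 0.00855). Dpy30, the small subunit that raises the activity of the core, measured 11.06 and 10.97 in HSC, 11.00 and 10.84 in ProT and 10.27 and 10.30 in DP, a change of -0.64 ± 0.09 (limma adjusted p = 0.0029). Ash2l, at 10.20 and 10.03 in ProT and 9.91 and 9.84 in DP, changed by -0.24 ± 0.10 and was not called (adjusted p = 0.135). Rbbp5 rose by 0.27 ± 0.08, from 8.98 and 9.0 to 9.30 and 9.23 (limma adjusted p = 0.0438). That call was lost without dim genes (adjusted p = 0.0651) and with a trended robust prior (0.132). It was also lost without any 1 of the ProT or DP arrays, at changes of 0.24 to 0.31. Men1, which encodes menin, the partner of Kmt2a and Kmt2b, was highest in ProT by mean, at 10.88 and 10.71 against 10.49 and 10.32 in DP, with a change of -0.39 ± 0.12 that was not called (adjusted p = 0.0593).

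Wdr5 is shown as the scaffold of the complex and as the member of lowest CpG content among those printed. Its upstream window lies at chr2:27514897-27515146 of GRCm38.p6 on the plus strand, written 5′ to 3′, and the capitals mark a RUNX core on the opposite strand and a GC box.
Wdr5: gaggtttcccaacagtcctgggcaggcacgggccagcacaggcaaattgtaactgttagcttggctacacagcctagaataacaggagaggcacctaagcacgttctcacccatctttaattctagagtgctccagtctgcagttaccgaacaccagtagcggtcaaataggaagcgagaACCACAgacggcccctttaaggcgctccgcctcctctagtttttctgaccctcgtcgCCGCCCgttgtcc
It held 12 CpG pairs, was 54.4% G and C, and was the only one of the 42 member windows with the RUNX core.

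H3K4 demethylases rose in part, with 2 of 4 higher in DP than in ProT and 3 higher than in HSC. Kdm1b, the flavin-dependent relative of LSD1, measured 8.0 and 8.10 in HSC, 8.44 and 8.53 in ProT and 9.67 and 9.59 in DP. The 3 populations did not overlap, and it rose by 0.44 ± 0.08 to ProT (limma adjusted p = 0.0195) and by 1.15 to DP, 2.21-fold (limma adjusted p = 0.000273). The first of these calls was lost when only HSC and ProT arrays were fitted (limma adjusted p = 0.0591) and with a trended robust prior (0.0555). None of the 3 calls between HSC and ProT, that of Kdm1b included, was made under every left-out array. Kdm1a, which encodes LSD1 itself, stayed within 10.58 to 10.69 on all 6 arrays and was called in no comparison.

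Kdm5a and Kdm5b remove methyl groups from trimethylated H3K4. Kdm5a measured 10.08 and 9.82 in HSC, 10.03 and 10.26 in ProT and 11.07 and 11.06 in DP, a rise from ProT of 0.92 ± 0.12 (limma adjusted p = 0.00262). Kdm5b measured 10.38 and 9.93 in HSC, 10.69 and 10.81 in ProT and 10.93 and 10.82 in DP. Its HSC arrays lay below all others, the difference of 0.59 ± 0.16 to ProT was not called (limma adjusted p = 0.0617) as deposited and was called without dim genes (0.0431), and the DP to HSC difference of 0.72 was called (0.0151).

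**Figure D3:**
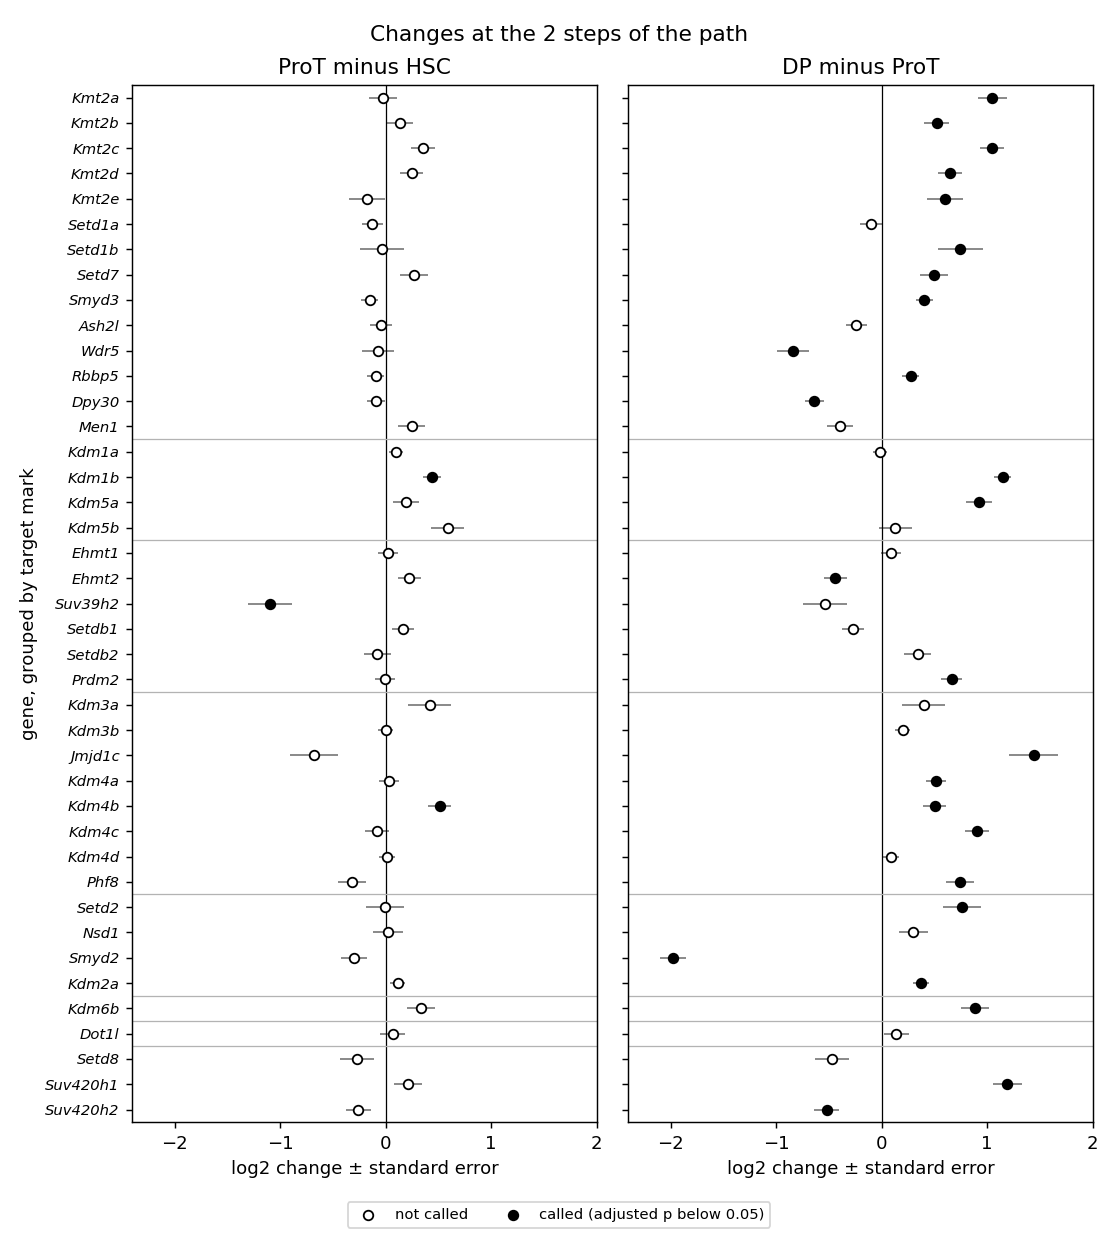
Log2 change with its standard error for each member, ProT minus HSC on the left and DP minus ProT on the right, with filled points where limma called the change. On the left 3 points are filled, and on the right 21 lie filled above 0 and 5 below, with Smyd2 at -1.98 and Jmjd1c at 1.44 at the ends.

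Among the H3K9 writers, 1 of 6 rose from ProT to DP (Prdm2) and 1 fell (Ehmt2). These are 16.7% each, near the 14.5% higher and 18.1% lower among all genes. Suv39h2, which trimethylates H3K9 in heterochromatin, measured 7.75 and 8.35 in HSC, 6.83 and 7.07 in ProT and 6.51 and 6.32 in DP. Every ProT and DP array lay below both HSC arrays and below the median of all genes. The change from HSC was -1.10 ± 0.21 to ProT (limma adjusted p = 0.02) and -1.64 ± 0.21 to DP (0.00179). The call in ProT was lost when only HSC and ProT were fitted (adjusted p = 0.07), and lower members at that step numbered 0 without ProT replicate 1 or either DP array, 2 without ProT replicate 2 or HSC replicate 2, and 3 without HSC replicate 1.

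Suv39h2 is printed as the only member lower in ProT than in HSC. Its window is chr2:3474987-3475236 of GRCm38.p6 on the minus strand, written 5′ to 3′ on the strand of the gene with GC boxes in capitals.
Suv39h2: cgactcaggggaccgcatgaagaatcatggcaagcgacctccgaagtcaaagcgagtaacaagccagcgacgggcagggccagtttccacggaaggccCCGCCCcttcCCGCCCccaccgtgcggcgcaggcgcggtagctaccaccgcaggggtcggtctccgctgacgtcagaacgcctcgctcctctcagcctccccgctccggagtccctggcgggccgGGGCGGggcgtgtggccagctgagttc
It held 27 CpG pairs and 3 GC boxes and was 69.6% G and C.

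The paired enzymes of H3K9 dimethylation, Ehmt1 and Ehmt2, differed in their calls. Ehmt2, which encodes G9a, measured 10.26 and 9.97 in HSC, 10.36 and 10.32 in ProT and 9.91 and 9.90 in DP. Its change from ProT was -0.44 ± 0.11 (limma adjusted p = 0.027), not called after quantile normalization (0.0774) or median centring (0.0523). The call of Ehmt2 was also lost without any 1 of the ProT or DP arrays, at changes of -0.46 to -0.42. Ehmt1 had overlapping arrays in every comparison, between 9.27 and 9.52. Whether the 2 genes differed from each other was not tested. Prdm2, at 9.82 and 10.05 in HSC, rose from 9.95 and 9.91 to 10.57 and 10.61, by 0.66 ± 0.10 (limma adjusted p = 0.0037), and Setdb1, which silences retroelements, and Setdb2 changed by -0.27 and 0.34 with no call (adjusted p = 0.108 and 0.0975), the second called after quantile normalization (0.0235) and median centring (0.0425).

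Among the H3K9 demethylases, 5 of 8 were higher in DP than in ProT (62.5%, against 14.5% of all genes). Of the 8, 0 were lower (against 18.1%), also at an unadjusted p below 0.05 in limma. Over all 14 demethylases among the members, of any residue, 9 rose at that step and 0 fell. At an unadjusted p below 0.05 in limma 0 of the 14 were lower as well. Of the 22 methylases 11 rose and 3 fell. Both sets of counts stand beside 14.5% higher and 18.1% lower among all genes. Demethylases and methylases were not tested against each other, and their counts are given as a description. The KDM4 enzymes act on H3K9 and H3K36, and 3 of 4 rose. Kdm4b measured 9.21 and 9.10 in HSC, 9.53 and 9.81 in ProT and 10.17 and 10.18 in DP, without overlap between populations, and rose at both steps, by 0.51 ± 0.11 (limma adjusted p = 0.0314) and 0.50 (0.0177). The first of its calls was lost when only HSC and ProT were fitted (limma adjusted p = 0.0973), and neither call was made under every left-out array. Kdm4c measured 9.04 and 9.33 in ProT and 10.09 on both DP arrays, a rise of 0.90 ± 0.12 (limma adjusted p = 0.00233), and Kdm4a rose from 10.37 and 10.38 to 10.92 and 10.85, by 0.51 ± 0.10 (0.0099). Kdm4d, at 5.66 to 5.83, was below the median of all genes on every array.

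Jmjd1c was the member with the largest rise from ProT and with the most uneven ProT arrays. It measured 10.51 and 10.41 in HSC, 9.41 and 10.15 in ProT and 11.27 and 11.17 in DP. Both ProT arrays lay below HSC, though the change of -0.68 ± 0.23 was not called (limma adjusted p = 0.122) with all arrays and was -1.05 and called without ProT replicate 2 (0.00476). DP lay above both, by 1.44 ± 0.23 over ProT (limma adjusted p = 0.00524). With the mean of its probe sets the DP to HSC difference of 0.76 (adjusted p = 0.0484) was 0.39 and not called (0.185). Kdm3a, its relative, also had uneven ProT arrays, 9.96 and 10.61, beside 9.83 and 9.91 in HSC and 10.66 and 10.71 in DP, and was called between HSC and DP (0.81 ± 0.20, limma adjusted p = 0.0253) and, with all 6 arrays, at neither step. That call for Kdm3a was lost without any 1 of the HSC or DP arrays (limma adjusted p between 0.0613 and 0.146). Without ProT replicate 1 its difference from HSC to ProT was 0.74 in place of 0.42 and was called (0.013), and without ProT replicate 2 that from ProT to DP was 0.72 in place of 0.40 and was called (0.00589). Kdm3b lay between 11.11 and 11.34 on all 6 arrays, with a DP to ProT difference of 0.20 that was not called (adjusted p = 0.0801) as deposited and was called after quantile normalization (0.044) and median centring (0.0177). Phf8, on the X chromosome, which removes H3K9 dimethylation and H4K20 monomethylation, rose from 9.86 and 9.76 to 10.55 on both DP arrays, by 0.74 ± 0.14 (limma adjusted p = 0.00897). Its HSC arrays, at 9.93 and 10.32, lay between, and the DP to HSC difference of 0.42 was not called (adjusted p = 0.0597) as deposited but was after quantile normalization (0.0227).

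The H3K36 genes held the largest fall of any member between ProT and DP, that of Smyd2, while 2 of the 4 measured rose. Smyd2, which methylates H3K36 and other proteins such as p53, measured 10.38 and 10.16 in HSC, 10.10 and 9.84 in ProT and 7.97 and 8.01 in DP. Both DP arrays lay far below the rest, with a change from ProT of -1.98 ± 0.12, 3.94-fold lower (limma adjusted p = 0.000154), and the signal in DP stayed above the median of all genes. Smyd3, a relative described above with H3K4, rose at the same step.

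Smyd2 is printed as the member with the widest range over the populations. The window is chr1:189922292-189922541 of GRCm38.p6 on the minus strand, written 5′ to 3′ on the strand of the gene with GC boxes in capitals. It partly overlaps the listed span of the gene itself.
Smyd2: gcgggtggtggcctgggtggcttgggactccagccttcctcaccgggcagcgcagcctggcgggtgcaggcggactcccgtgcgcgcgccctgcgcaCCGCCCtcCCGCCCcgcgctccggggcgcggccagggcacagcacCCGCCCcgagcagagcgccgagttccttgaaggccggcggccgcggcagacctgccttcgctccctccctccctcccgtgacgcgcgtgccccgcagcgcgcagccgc
It held 34 CpG pairs and 3 GC boxes and was 78.8% G and C.

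The other H3K36 genes rose or were not called. Setd2, the writer of H3K36 trimethylation over gene bodies, measured 10.10 and 9.76 in HSC, 9.71 and 10.14 in ProT and 10.71 and 10.67 in DP, a rise of 0.76 ± 0.18 from ProT (limma adjusted p = 0.0208). Kdm2a, the demethylase that binds CpG islands, rose from 10.58 and 10.66 to 11.01 and 10.99, by 0.37 ± 0.07 (limma adjusted p = 0.0107), and Nsd1, a writer of dimethylation, changed by 0.30 with no call (adjusted p = 0.17).

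Kdm6b, which encodes the H3K27 demethylase JMJD3, measured 9.55 and 9.93 in HSC, 10.05 and 10.10 in ProT and 11.00 and 10.92 in DP. It rose by 0.89 ± 0.13 from ProT (limma adjusted p = 0.00408) and by 1.22 from HSC, 2.33-fold. Dot1l, the H3K79 writer, lay between 10.09 and 10.42 on all arrays and was called in no comparison.

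Of the 3 H4K20 writers, 1 rose from ProT to DP and 1 fell (33.3% each, against 14.5% and 18.1% of all genes). Suv420h1 measured 8.67 and 9.02 in HSC, 8.99 and 9.13 in ProT and 10.30 and 10.20 in DP, a rise of 1.19 ± 0.13 from ProT, 2.29-fold (limma adjusted p = 0.00136). Suv420h2, which acts with it on monomethylated H4K20, measured 10.73 and 10.41 in HSC, 10.30 and 10.33 in ProT and 9.83 and 9.75 in DP. Its change was -0.78 from HSC (limma adjusted p = 0.00347) and -0.52 ± 0.12 from ProT (0.0187), the second not called after quantile normalization (0.0533). That second call was also lost without any 1 of the ProT or DP arrays, at changes of -0.56 to -0.48. The 2 paralogues were called in opposite directions in both comparisons with DP. Setd8, which places the first methyl group and is tied to the cell cycle, measured 11.55 and 12.05 in HSC, 11.58 and 11.48 in ProT and 11.04 and 11.08 in DP. Its change was -0.47 ± 0.16 from ProT, not called (limma adjusted p = 0.078), and -0.74 from HSC, called (0.0158). Without HSC replicate 2 the change of Setd8, DP against HSC, was -0.49. The call of Setd8 in that comparison was not made under every left-out array. Of the 19 proliferation genes, 14 were also lower in DP than in HSC, and their part in the value of Setd8 was not tested.

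**Figure D4:**
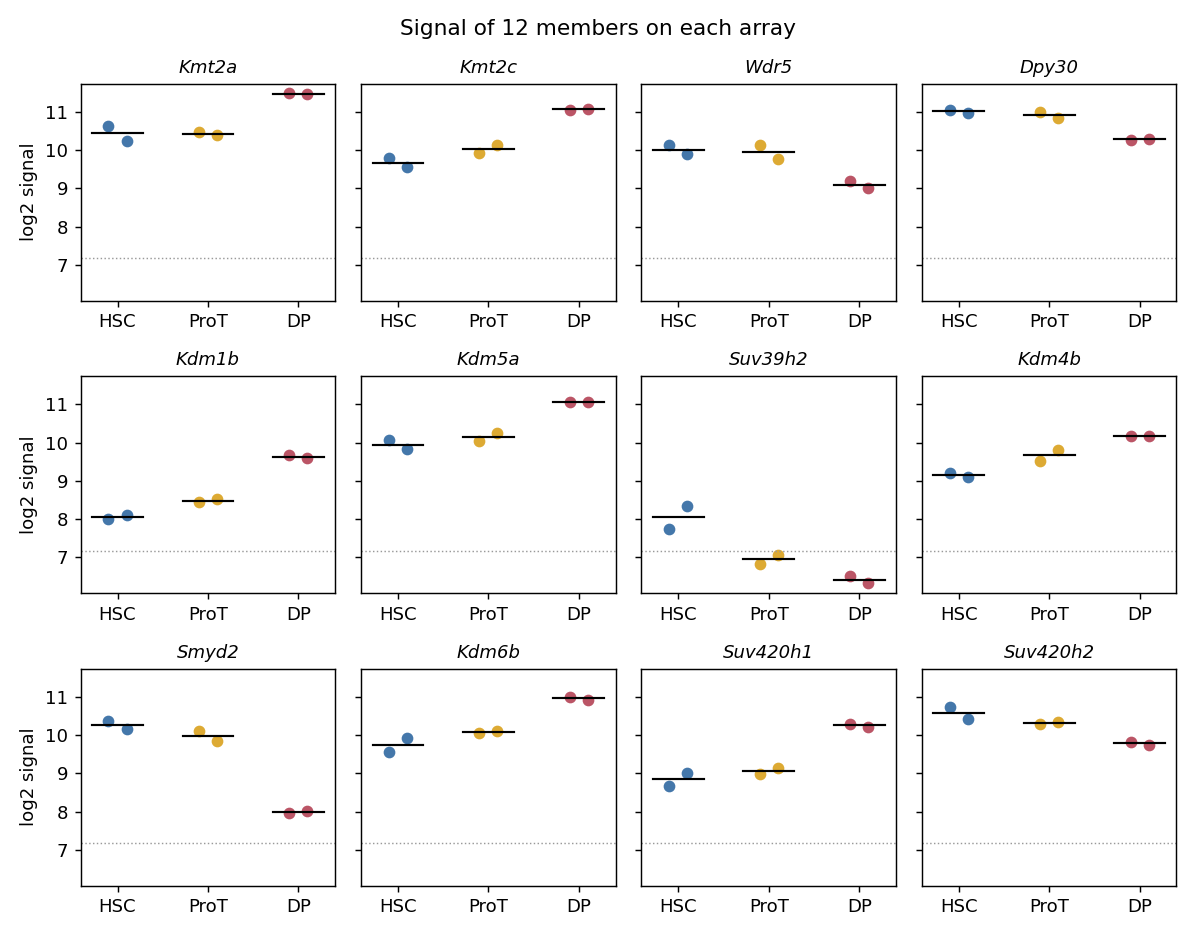
Log2 signal of 12 members on each array, with points for the arrays, black lines for the mean of each population and a dotted line at 7.17, the median of all gene values. The axis does not start at 0. Kdm1b and Kdm4b step up from HSC to ProT to DP, Suv39h2 lies under the dotted line in ProT and DP, and Smyd2 drops at DP.

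At the step from HSC to ProT the remaining 35 members had changes between -0.32 and 0.35 with none called. Of these, 16 had another sign in at least 1 alternative and 7 were called in at least 1, each time by leaving out an array. The ProT arrays differed most for Jmjd1c (0.74), Kdm3a (0.65), Kmt2e (0.52), Setd2 (0.43) and Setd1b (0.42), and ProT replicate 1 was the lower of the pair for the first 4 of these and for the proliferation genes, at a mean of 11.13 against 11.46.

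Of 57 other genes of the pathway 54 were measured. From ProT to DP, 11 rose (20.4%, against 14.5% of all genes) and 7 fell (13.0%, against 18.1%), with a median change of 0.035. From HSC to ProT, 4 rose and 2 fell (7.41% and 3.7%, against 7.85% and 6.9% of all genes). From HSC to DP 11 rose and 9 fell (20.4% and 16.7%, against 16.0% and 18.8%). Among 10 further demethylases, 2 rose from ProT to DP, Phf2 and Kdm7a of the family of Phf8. Another 2 fell, Riox1 (-0.97, limma adjusted p = 0.00964) and Riox2 (-0.67, 0.00572), named here to complete the count. Kdm5d, Uty and Hr, also among the 10, lay below the median of all genes in every population. Kdm6a, itself a demethylase, was counted with the partners of H3K4 writers and rose by 0.54 ± 0.13 (limma adjusted p = 0.0269). Phf2 measured 10.76 and 10.50 in ProT and 11.82 and 11.80 in DP (1.18 ± 0.13, limma adjusted p = 0.00117), and Kdm7a 9.09 and 10.01 in ProT and 10.97 and 11.05 in DP (1.47 ± 0.36, limma adjusted p = 0.0269). Smyd5, of the family of Smyd2, measured 10.58 and 9.81 in ProT and 8.64 and 8.43 in DP, a change of -1.66 ± 0.24 (limma adjusted p = 0.00385). Mecom, a progenitor regulator also used as a marker above, changed by -2.74 to ProT and by 1.42 to DP. Of 6 partners of DOT1L, 3 rose from HSC to ProT (against 7.85% of all genes) and 5 from HSC to DP (against 16.0%). From ProT to DP 1 of the 6 rose (against 14.5%), and 0 fell in any comparison. Mllt3, among the 5, measured 8.84 and 8.32 in HSC, 9.61 and 10.33 in ProT and 10.22 and 10.17 in DP. Aff1, also among the 5, was higher in DP than in HSC by 1.01. Of the 9 partners of H3K4 writers, 2 rose from ProT to DP (22.2%, against 14.5% of all genes) and 0 fell (against 18.1%). At an unadjusted p below 0.05 in limma 0 were lower as well.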

How the data were processed

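Biotin-labelled cRNA from the total RNA of 6 samples was measured on Affymetrix arrays, per the labels' protocols. The deposited table holds 1 log2 signal per probe set and array, and per the submitters' processing notes the authors made these log2 values with RMA and Partek, with versions not given in the sources used here. RMA normalizes between arrays, so a shift of all genes together would be removed. Of 35556 probe sets, 21789 mapped to 1 gene (19938 genes), 1621 to several and 12146 to none, and the last 2 kinds were left out. For the 999 genes with several probe sets the one with the highest mean was used.

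A mean per population was fitted to all 6 arrays with limma 3.58.1 in R 4.3.3 (lmFit, eBayes with a constant prior), and p-values were adjusted by Benjamini-Hochberg over all genes of a comparison. With 2 arrays against 2, an exact permutation test cannot reach 0.05. The spread used by limma joins that of the gene itself, with 3 degrees of freedom, to one drawn from all genes, with 2.83. The number of arrays limits the precision. The scripts were tested on simulated data. Every measured member is named. Genes of other lists are named only where called with a log2 change of at least 1 in size or where a result turns on them, and most of those that qualify are given as counts. Members and lists were chosen with earlier results of these data known. The fits were repeated after quantile normalization or median centring, with the replicate number as a block, with dim genes left out (those reaching the overall median on fewer than 2 arrays), with the mean of probe sets, with 2 populations only, with a trended robust prior, at a threshold of 0.01 and without each array. Promoter windows come from a RefSeq table of GRCm38.p6. For the printed windows, gene coordinates were used to leave out those overlapping another gene and to find those overlapping the gene's own span. Python 3.11.15 with pandas 2.3.3 prepared the tables.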

Additional observations from a re-analysis of the deposited data

How the results depend on the processing

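With 2 arrays per population, counts of calls depended on which arrays entered the fit. Leaving out each array in turn gave 0 to 6 members higher and 0 to 3 lower in ProT than in HSC, 8 to 22 higher and 2 to 8 lower in DP than in ProT, and 11 to 20 higher and 4 to 7 lower in DP than in HSC. Members highest in ProT then numbered 0 to 1, and members lowest in ProT 0 to 1. With only the 2 populations compared in the fit, 0 members were higher and 0 lower in ProT than in HSC, and 8 were lower in DP than in ProT. At an adjusted p below 0.01 in limma, 0 were higher and 0 lower in ProT than in HSC (5 and 3 at an unadjusted p below 0.05), and 12 were higher and 3 lower in DP than in ProT. After quantile normalization 3 were lower in DP than in ProT. Counts under the trended robust prior, the mean of probe sets, median centring and the filter on dim genes were within 1.5 times those reported.

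Some differences that were not called changed sign. Kdm1a, DP against ProT, was 0.042 after quantile normalization and 0.10 after median centring. Setdb1, DP against HSC, was 0.025 after quantile normalization. Setd1a, DP against ProT, was 0.0151 after median centring and ranged from -0.22 to 0.0147 when 1 array was left out. No called change had another sign under any of these alternatives.

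Samples share replicate numbers across populations, but deviations of samples with the same number had correlations of 0.058, -0.022 and -0.043 over genes, so the numbers were not taken as pairs. With the number as a replicate block, 2 members were higher and 1 lower in ProT than in HSC, 19 higher and 6 lower in DP than in ProT, and 17 higher and 6 lower in DP than in HSC. Calls lost with the replicate block were Rbbp5 and Setd1b in DP against ProT (adjusted p = 0.0741 and 0.0648 in limma) and Setd1b and Jmjd1c in DP against HSC (0.07 and 0.0572), and Men1 in DP against ProT was gained (0.0193).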
